A study of Homo sapiens with 4 samples.

Results

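To ask how the genes of the Notch pathway behaved when the long non-coding RNA AP1AR-DT was raised in human neuroblastoma cells, 10 genes were followed in the RNA-seq counts of SK-N-SH cells: the receptors NOTCH1, NOTCH2 and NOTCH3, the ligands JAG1, JAG2, DLL1 and DLK1, the DNA-binding factor RBPJ, and the target genes HES1 and HEY1. The members were taken by gene symbol from the table of 24014 genes, and all 10 had a row with a count above 0 in every library. SK-N-SH is an established neuroblastoma line in which adrenergic, neuroblast-like cells grow beside mesenchymal, substrate-adherent ones. Control cells (2 libraries) have titles that read wild type and are taken here as the empty-vector control. AP1AR-DT_OE cells (2 libraries) received a recombinant lentivirus carrying AP1AR-DT, which the labels call AC109347.1. The paper's methods place AP1AR-DT in a vector with a puromycin resistance gene. They do not say which vector the sequenced controls received, so the paper and the titles do not state that both groups were transduced. The promoter, the time after infection and whether the libraries of a group came from separate cultures are not given in the sources used here, so p-values measure the spread between these libraries, which may be technical. For AP1AR-DT_OE 2, the RNA's name in the title and in the other labels differs in the number after the dot, and the title was followed. That library held 1065 counts of AP1AR-DT.

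Notch signalling passes between touching cells. A ligand of the Jagged or Delta-like kind on one cell binds a NOTCH receptor on the next, the receptor is cut by an ADAM protease and then by gamma-secretase, and its freed intracellular part enters the nucleus. There it joins RBPJ and a Mastermind-like co-activator on DNA and switches on genes such as HES1 and HEY1, which encode repressors of neuronal differentiation genes. In neuroblastoma, Notch activity is known for its link with the mesenchymal state, while DLK1 is known from adrenergic, chromaffin-like cells.

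The libraries held between 21988065 and 26184599 counts, and AP1AR-DT itself, read as a check of the labels, had 3 and 18 counts in control and 680 and 1065 counts in AP1AR-DT_OE. Adrenergic and mesenchymal marker genes were both present. Of the 9 adrenergic markers listed, 8 were in the table, with a summed normalized read count between 24078 and 29800, and all 11 mesenchymal markers were, with a sum between 155688 and 210923. Of the markers of other cell types, 1 of 4 for immune cells and 0 of 3 for endothelial cells were in the table, while 3 of 4 epithelial markers were in the table and their sum, between 2194 and 3668, came nearly all from KRT8 and KRT18. Of 5 Schwann cell markers 3 were in the table, and their sum was 78.6 and 84.1 in control and 132 and 122 in AP1AR-DT_OE, higher in both AP1AR-DT_OE libraries though no marker was called. The part of these markers in the values of the Notch members was not tested. Compared gene by gene, the controls gave a chi-square per degree of freedom of 155 and the AP1AR-DT_OE libraries gave 69.0, against 27.7 between the libraries numbered 1 and 34.6 between those numbered 2. No library was a copy of another, and values are given below for each library number as well as for each group. Because these are bulk libraries, fewer cells expressing a gene and less of its RNA per cell cannot be told apart.

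None of the Notch members differed between AP1AR-DT_OE and control beyond the spread between libraries. By DESeq2, 0 of the 10 were called at an adjusted p under 0.05, where 0.137% of all 24014 genes were called (33 genes; 0.0833% higher and 0.0541% lower). At an unadjusted p under 0.05 it was again 0 of 10, against 0.816% of all genes. The edgeR quasi-likelihood test called 0 members at either threshold. Of the 17027 genes it tested, it called 0 after adjustment and 0.658% before. The median Log2FC of the members was -0.14, with 3 above 0 and 7 below, where the median of all genes was -0.03, with 10941 above 0 and 13073 below. Over the members the fold ran from 0.841 to 1.43. These intervals are wide, since the standard errors of the Log2FC ran from 0.49 to 1.14, and among the 25 called genes that averaged 50 or more normalized counts the smallest absolute Log2FC was 2.19.

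**Figure D1:**
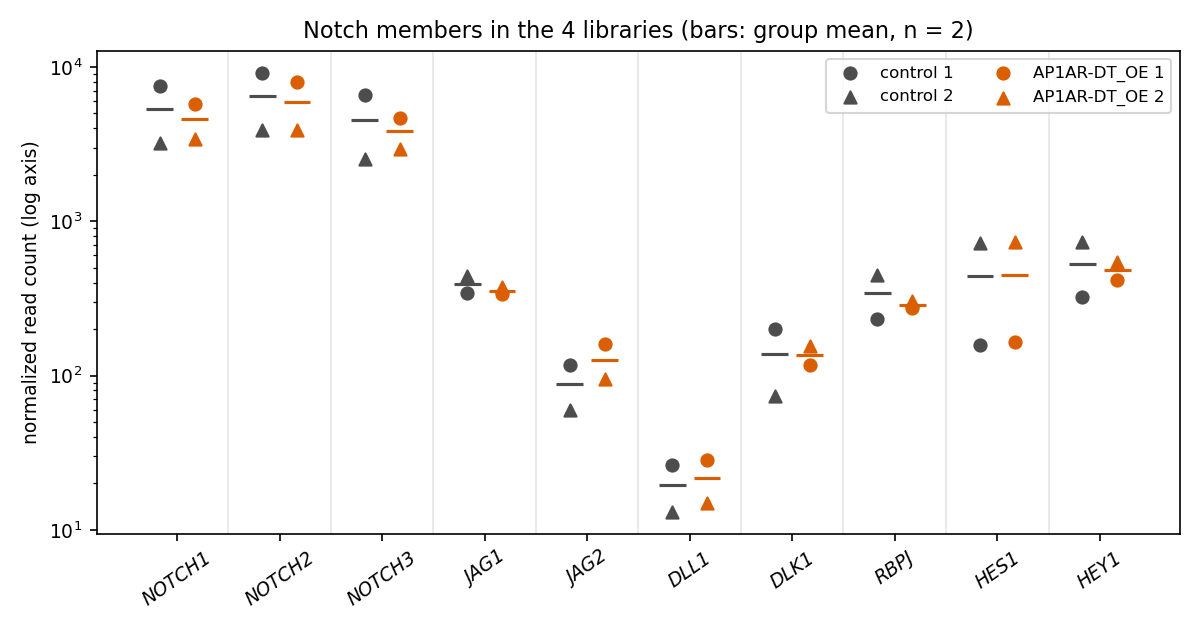
Normalized read count (log axis) of each Notch member in the 4 libraries, with control in grey, AP1AR-DT_OE in orange, circles for the libraries numbered 1, triangles for those numbered 2 and bars for the group means (n = 2). The values of the groups overlap for all 10 members, and HES1 splits by library number, near 157 and 166 in the libraries numbered 1 and near 727 and 736 in those numbered 2.

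The receptors had the highest normalized read counts of the members. NOTCH1 (ENSG00000148400; chromosome 9, 136494433 to 136546048, GRCh38 as the table gives it) had 7517 and 3202 normalized counts in control and 5709 and 3414 in AP1AR-DT_OE. NOTCH2 (ENSG00000134250; chromosome 1, 119911553 to 120100779) had 9168 and 3872 in control and 7970.0 and 3906 in AP1AR-DT_OE. NOTCH3 (ENSG00000074181; chromosome 19, 15159038 to 15200995) had 6545 and 2536 in control and 4697 and 2938 in AP1AR-DT_OE. In all 3 receptors both libraries numbered 1 lay above both libraries numbered 2, and the AP1AR-DT_OE values fell inside the range of the controls. The Log2FC was -0.23 for NOTCH1 (SE = 0.53, 95% interval -1.26 to 0.80, DESeq2 adjusted p = 1.00). It was -0.13 for NOTCH2 (SE = 0.55, 95% interval -1.20 to 0.93, adjusted p = 1.00). For NOTCH3, the receptor most often named with the mesenchymal state, it was -0.25 (SE = 0.54, 95% interval -1.30 to 0.80, adjusted p = 1.00). Within the libraries numbered 1 the log2 ratio of AP1AR-DT_OE over control was -0.40 for NOTCH1, -0.20 for NOTCH2 and -0.48 for NOTCH3, while within those numbered 2 it was 0.09, 0.01 and 0.21. The sign thus depended on the library number for each receptor. NOTCH2 has near-identical partial copies elsewhere in the human genome (the NOTCH2NL genes), and how reads were split between them is not stated, so its count is less certain than those of NOTCH1 and NOTCH3. The fourth receptor, NOTCH4, has no row in the table and is not analysed here.

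Set side by side per length of the longest annotated transcript, the receptors stood at similar levels in each library. The ratio of NOTCH2 over NOTCH1, in normalized counts per kilobase, was 1.05 and 1.04 in control and 1.20 and 0.987 in AP1AR-DT_OE. The ratio of NOTCH3 over NOTCH1 was 0.989 and 0.899 in control and 0.934 and 0.977 in AP1AR-DT_OE. While the summed normalized count of the 3 receptors was 23231 and 9609 in control and 18376 and 10258 in AP1AR-DT_OE, the ratio of NOTCH3 over NOTCH2 was 0.940 and 0.862 in control and 0.776 and 0.990 in AP1AR-DT_OE.

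The canonical ligands were lower than the receptors per length in every library. JAG1 (ENSG00000101384; chromosome 20, 10637684 to 10673999), the ligand Jagged1, had 343 and 438 normalized counts in control and 336 and 374 in AP1AR-DT_OE. As a ratio of the highest to the lowest library, these 4 values were the closest together of any member, and the Log2FC was -0.14 (SE = 0.49, 95% interval -1.10 to 0.82, adjusted p = 1.00). JAG2 (ENSG00000184916; chromosome 14, 105140982 to 105168824), the related ligand Jagged2, had 117 and 60.2 in control and 159 and 94.3 in AP1AR-DT_OE. The higher AP1AR-DT_OE library lay above both controls and the lower one between them. JAG2 had the highest Log2FC of the members, 0.52 (SE = 0.67, 95% interval -0.80 to 1.84, adjusted p = 1.00). The libraries numbered 1 alone gave a log2 ratio of 0.44 and those numbered 2 gave 0.64. DLL1 (ENSG00000198719; chromosome 6, 170282206 to 170306565), a Delta-like ligand, was near the limit of detection, with 23 and 17 raw counts in control and 26 and 15 in AP1AR-DT_OE. About 4 counts stand for 1 read pair here, and the limit that an observation of 0 allows, 3 read pairs or 12 counts, lies just under these values. In normalized counts DLL1 stood at 26.2 and 13.1 in control and 28.5 and 14.9 in AP1AR-DT_OE, higher in both libraries numbered 1. The Log2FC of DLL1 was 0.15 (SE = 1.14, adjusted p = 1.00), and the interval of its fold, 0.234 to 5.24, was the widest of the members. DLL1 shares 370 exon bases with FAM120B on the opposite strand, JAG1 shares 306 with a non-coding RNA on the opposite strand, and JAG2 shares 469 with a non-coding RNA on its own strand. Whether counting used strand is not stated, so their counts are uncertain to that extent.

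DLK1 (ENSG00000185559; chromosome 14, 100725705 to 100738224) encodes a non-canonical ligand that lacks the motif by which Delta and Jagged ligands activate the receptor. It had 202 and 74.1 normalized counts in control and 117 and 155 in AP1AR-DT_OE. Control 1 was the highest library and control 2 the lowest, with both AP1AR-DT_OE libraries between them, and the Log2FC was -0.01 (SE = 0.66, 95% interval -1.32 to 1.29, adjusted p = 1.00). DLK1 had the most opposed values within the library numbers: AP1AR-DT_OE over control was -0.78 on the log2 scale for number 1 and 1.06 for number 2.

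RBPJ (ENSG00000168214; chromosome 4, 26163455 to 26435131), through which all NOTCH receptors reach DNA, had 233 and 449 normalized counts in control and 272 and 303 in AP1AR-DT_OE. Both AP1AR-DT_OE libraries lay between the controls, and the Log2FC was -0.25 (SE = 0.54, 95% interval -1.31 to 0.81, adjusted p = 1.00). Compared within the libraries numbered 1 it stood at 0.22 on the log2 scale, and within those numbered 2 at -0.57.

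HES1 (ENSG00000114315; chromosome 3, 194136148 to 194138732) is the classical target of the NOTCH and RBPJ complex. It had 157 and 727 normalized counts in control and 166 and 736 in AP1AR-DT_OE. The libraries with the same number were close to each other, and those of a group were far apart. The log2 ratio of AP1AR-DT_OE over control was 0.08 in number 1 and 0.02 in number 2, whereas library 2 over library 1 gave 2.21 in control and 2.15 in AP1AR-DT_OE. The Log2FC was 0.03 (SE = 0.75, adjusted p = 1.00), a fold of 1.02 with a 95% interval of 0.368 to 2.83, and the spread within the groups that sets this interval includes the difference between the numbers. HEY1 (ENSG00000164683), a related repressor and target, had 322 and 733 in control and 414 and 545 in AP1AR-DT_OE. Its AP1AR-DT_OE libraries lay between the controls, and the Log2FC was -0.14 (SE = 0.54, 95% interval -1.20 to 0.92, adjusted p = 1.00). Like RBPJ, HEY1 had log2 ratios of opposite sign, 0.36 in number 1 and -0.43 in number 2.

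**Figure D2:**
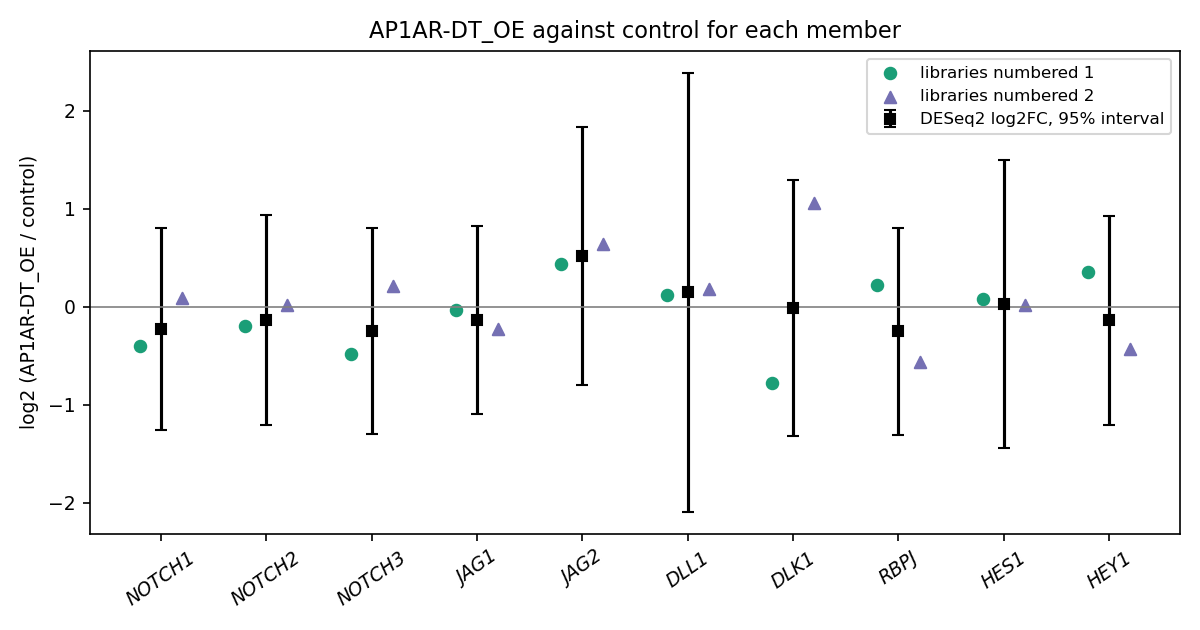
Log2 ratio of AP1AR-DT_OE over control for each Notch member, with the DESeq2 Log2FC and its 95% interval in black, the libraries numbered 1 as green circles and those numbered 2 as purple triangles. Every interval spans 0, and the circle and triangle lie on the same side of 0 for 4 of the 10 members, JAG1, JAG2, DLL1 and HES1. The same share over all genes was not computed.

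The promoter of HES1 is shown because it carries the letters by which RBPJ is known to bind DNA. Promoter windows of 300 bases, from 250 before to 50 after the start, were taken from RefSeq (GRCh38.p14), and 7 of the 10 members matched by symbol (all but DLL1, DLK1 and HEY1). The core TGGGAA was searched on both strands, as was the longer GTGGGAA, which contains it. The HES1 window held TGGGAA at -84 and -70, counted back from -1 at the last base before the start, both on the strand of the gene, and the first of them was the longer form, beginning at -85. Of 35116 windows in the table, 24% held TGGGAA at least once, 3.8% held it 2 times or more and 6.25% held GTGGGAA. Of the 5 starts listed for RBPJ, 1 had matches, and they were GTGGGAA on opposite strands at -115 and -73. No window of NOTCH1, NOTCH2, NOTCH3, JAG1 or JAG2 held TGGGAA. The HES1 window also held CACNAG, the N-box to which HES proteins are known to bind, 4 times. Of all windows, 38% held it at least 1 time and 8.94% held it 2 times or more. CACNAG was also in the windows of NOTCH1 (2 matches), NOTCH2 (1), NOTCH3 (1) and start 1 of RBPJ (2). In the stretches below, capitals mark TGGGAA or, on the other strand, TTCCCA. The HES1 stretch is chr3:194135898-194136147 and the RBPJ stretch is chr4:26319616-26319705, both on the plus strand.
HES1: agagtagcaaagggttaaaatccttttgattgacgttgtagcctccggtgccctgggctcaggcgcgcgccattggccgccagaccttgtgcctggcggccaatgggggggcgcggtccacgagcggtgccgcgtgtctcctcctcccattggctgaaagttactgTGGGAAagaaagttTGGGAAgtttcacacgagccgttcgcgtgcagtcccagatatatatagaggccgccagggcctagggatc
RBPJ: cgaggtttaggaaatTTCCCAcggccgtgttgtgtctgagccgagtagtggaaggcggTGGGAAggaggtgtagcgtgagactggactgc

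The order of the members by level per length depended on the library number at its top. In both libraries numbered 1 the receptors came first, at 541 to 802 normalized counts per kilobase, with HES1 at 99.8 and 105. In both libraries numbered 2 HES1 came first, at 461 and 468, above the receptors at 292 to 346. The mean per kilobase over the 4 libraries, which joins these orders, was 545 for NOTCH2, 503 for NOTCH1, 481 for NOTCH3, 283 for HES1, 130 for HEY1, 62.7 for JAG1, 54.6 for RBPJ, 29.4 for DLK1, 18.7 for JAG2 and 5.47 for DLL1. The ranges over the libraries overlapped between each pair of neighbours in this order except between HEY1 (83.1 to 189) and JAG1 (56.5 to 73.8), and between JAG2 (10.4 to 27.6) and DLL1 (3.47 to 7.55). JAG1 was above JAG2 in every library, with a ratio per length of 2.84 and 7.08 in control and 2.05 and 3.86 in AP1AR-DT_OE. The ratio of HES1 over HEY1 was 1.20 and 2.44 in control and 0.986 and 3.33 in AP1AR-DT_OE, so which of these targets was higher per length in AP1AR-DT_OE differed between its libraries. Levels per length use the longest annotated transcript, 1575 bases for HES1 and 3878 for HEY1. Which transcripts the cells made was not tested, so the order and the ratios between genes rest on these lengths.

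**Figure D3:**
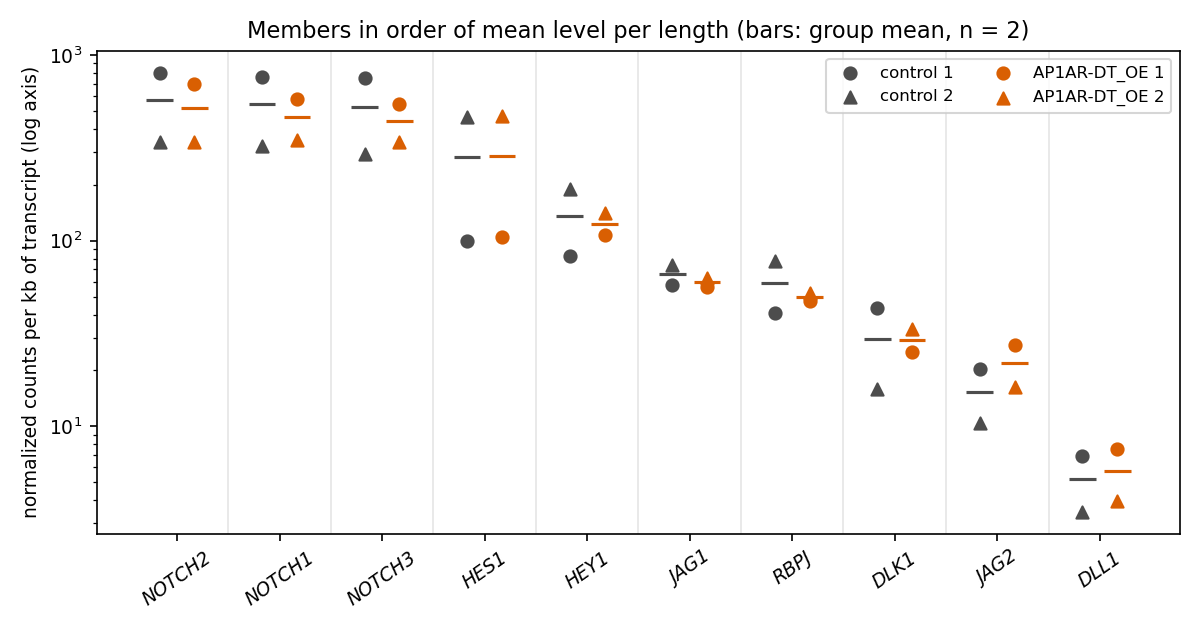
Normalized counts per kilobase of the longest transcript (log axis) for the Notch members, ordered by their mean over the 4 libraries, with control in grey, AP1AR-DT_OE in orange, circles for number 1, triangles for number 2 and bars for group means (n = 2). The 3 receptors lie between 292 and 802, the triangles of HES1 (461 and 468) lie above those of the receptors, and DLL1 lies below all others at 3.47 to 7.55.

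Most members also differed between the libraries of a group in the same direction in both groups, as did most genes at their level. Of the 9 members averaging 50 or more normalized counts, library 2 over library 1 had the same sign in control and AP1AR-DT_OE for 8, or 88.9%, where the share was 85.9% of the 13298 genes at that level; the exception was DLK1. Across 13284 of these genes with a known GC content, the log2 ratio of library 2 over library 1 was lower the higher a transcript's GC content, with Spearman's rho = -0.77 in control and -0.65 in AP1AR-DT_OE. The points of these correlations are genes that share the same libraries, and they are given as a description. The GC-rich members NOTCH1 (63.3%), NOTCH3 (63.1%) and JAG2 (64.1%) were lower in the libraries numbered 2, and the GC-poor members RBPJ (36.8%) and HEY1 (45.0%) were higher. AP1AR-DT_OE over control also moved with GC content, in opposite directions, with rho = -0.34 in the libraries numbered 1 and 0.62 in those numbered 2. The part of GC content in the members' values was not tested beyond the fits with GC correction, in which no member was called.

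HES1 and NOTCH2 lay outside the 5th to 95th percentile of genes of their own GC content in both groups. HES1, at 49.97% GC, had a log2 ratio of library 2 over library 1 of 2.21 in control, where the 1689 genes within 2 percentage points of its GC content had a median of -0.18 and a 5th to 95th percentile of -0.98 to 1.03. In AP1AR-DT_OE it was 2.15, against a median of -0.15 and a range of -0.73 to 0.75. Among all 13298 genes, 2.03% had a higher ratio in control and 0.850% in AP1AR-DT_OE. NOTCH2, at 49.4% GC, went the other way, with -1.24 in control and -1.03 in AP1AR-DT_OE, where its 1751 neighbours in GC content had medians of -0.09 and -0.11, and 1.88% and 1.83% of them were lower still. The other receptors were also low for their GC content, though inside the 5th to 95th percentile. For NOTCH1, 8.23% of its neighbours were lower in control and 5.20% in AP1AR-DT_OE. For NOTCH3 the shares were 5.42% and 7.59%. DLK1 lay below the 5th percentile of its neighbours in control alone (-1.44, against -1.24), and DLL1 in AP1AR-DT_OE alone (-0.92, against -0.80). The genes compared averaged 50 or more normalized counts and DLL1 averaged 20.7, so its ratio is less certain than theirs. JAG1, with nearly the GC content of NOTCH2 (49.6%), was at 0.35 and 0.16. HES1 and NOTCH2 were singled out after their values were seen, and each library number holds 1 library per group, so these are descriptions with no test.

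**Figure D4:**
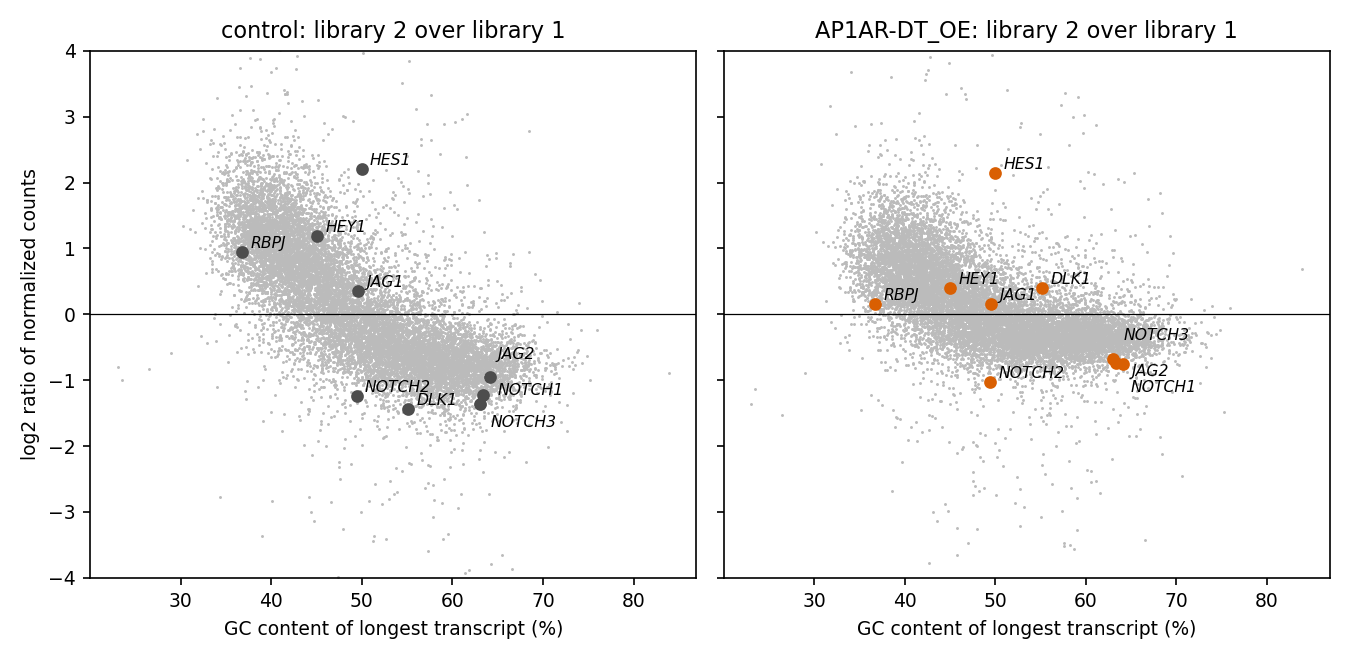
Log2 ratio of library 2 over library 1 against the GC content of the longest transcript, for control (left) and AP1AR-DT_OE (right), with each gene averaging 50 or more normalized counts as a small grey point and the 9 Notch members at that level as large labelled points. HES1 lies above the band in both panels at 2.21 and 2.15, and NOTCH2 lies near its lower edge at -1.24 and -1.03; 76 and 72 genes fall outside the axis limits of 4.

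The rest of the pathway was read from a list of 66 further genes in 10 roles with the members, of which 61 were in the table and 51 averaged 50 or more normalized counts. DESeq2 called 0 of the 61, against 0.137% of all genes, and edgeR called 0 of the 59 it tested, against 0 of all 17027. At an unadjusted p under 0.05 DESeq2 gave 1, against 0.816% of all genes, and edgeR gave 0 of 59, against 0.658%. The gene DESeq2 gave was the target HES2, which had 15 and 4 raw counts in control and none (0) with AP1AR-DT_OE, near or under the floor of 12 counts, so no fold is read. Over the 61 genes the median Log2FC was -0.06, with 20 above 0 and 41 below. The AP1AR-DT_OE libraries lay on one side of both controls for 0 of the 9 members at that level and for 8 of the 51 other genes (3 higher and 5 lower), where the share of all genes at that level was 9.45% (5.11% higher and 4.35% lower).

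No enzyme that prepares or cuts the receptor passed the test. All 9 genes of receptor cleavage averaged 50 or more. ADAM10, the protease that makes the first ligand-dependent cut, had the lowest Log2FC among them, with 281 and 606 normalized counts in control and 338 and 419 in AP1AR-DT_OE, for a Log2FC of -0.23 (SE = 0.54, adjusted p = 1.00). Of the genes for sugars on the receptor, POGLUT1, an O-glucosyltransferase, was lowest at -0.42 and LFNG, the Fringe enzyme that tunes the choice of ligand, was highest at 0.04 (SE = 0.67 and 0.47). Among regulators of receptor turnover, FBXW7, which marks the cleaved receptor for breakdown, was lowest at -0.29 (SE = 0.66), and DTX1, a Deltex protein that binds the receptor, was highest at 0.46 (SE = 0.59).

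On the ligand side, too, no further gene passed the test. DLL3, a Delta-like protein that acts inside the cell on its own receptors, had 342 and 237 normalized counts in control and 325 and 305 in AP1AR-DT_OE, for a Log2FC of 0.12 (SE = 0.51, adjusted p = 1.00). DLK2, the close relative of DLK1, had 99.1 and 62.5 in control and 109 and 116 in AP1AR-DT_OE. Its groups did not overlap, but the Log2FC of 0.48 had an SE of 0.65 (adjusted p = 1.00). MIB1 and MIB2, ubiquitin ligases that draw ligands into the cell, had a Log2FC of -0.07 and 0.02 (SE = 0.58 and 0.51).

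In the nucleus, 7 other activators averaged 50 or more, and their Log2FC ran from EP300, a histone acetyltransferase, at -0.42 (SE = 0.55) to KAT2A, another, at -0.02 (SE = 0.47). None passed the test, and 13073 of all 24014 genes also had a Log2FC below 0. The log2 ratio of KAT2A was -0.30 in the libraries numbered 1 and 0.39 in those numbered 2. Of 13 co-repressor genes at that level, L3MBTL3, which acts with RBPJ on silenced targets, was lowest, with 122 and 205 normalized counts in control and 82.3 and 134 in AP1AR-DT_OE, for a Log2FC of -0.60 (SE = 0.63, adjusted p = 1.00). CIR1, an RBPJ-interacting co-repressor, was highest at 0.25 (SE = 0.85). The targets apart from HES1 and HEY1 held the widest span. HES4 had 66.1 and 74.8 in control and 104 and 113 in AP1AR-DT_OE, with no overlap and a log2 ratio of 0.65 in number 1 and 0.59 in number 2, yet a Log2FC of 0.62 with SE = 0.65 (adjusted p = 1.00). HES6, which is known to promote neuronal differentiation and to oppose HES1, had 649 and 478 in control and 678 and 156 in AP1AR-DT_OE. The AP1AR-DT_OE 2 library alone was low: AP1AR-DT_OE over control was 0.06 on the log2 scale for number 1 and -1.61 for number 2. The Log2FC was -0.44 (SE = 0.64, adjusted p = 1.00).

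**Figure D5:**
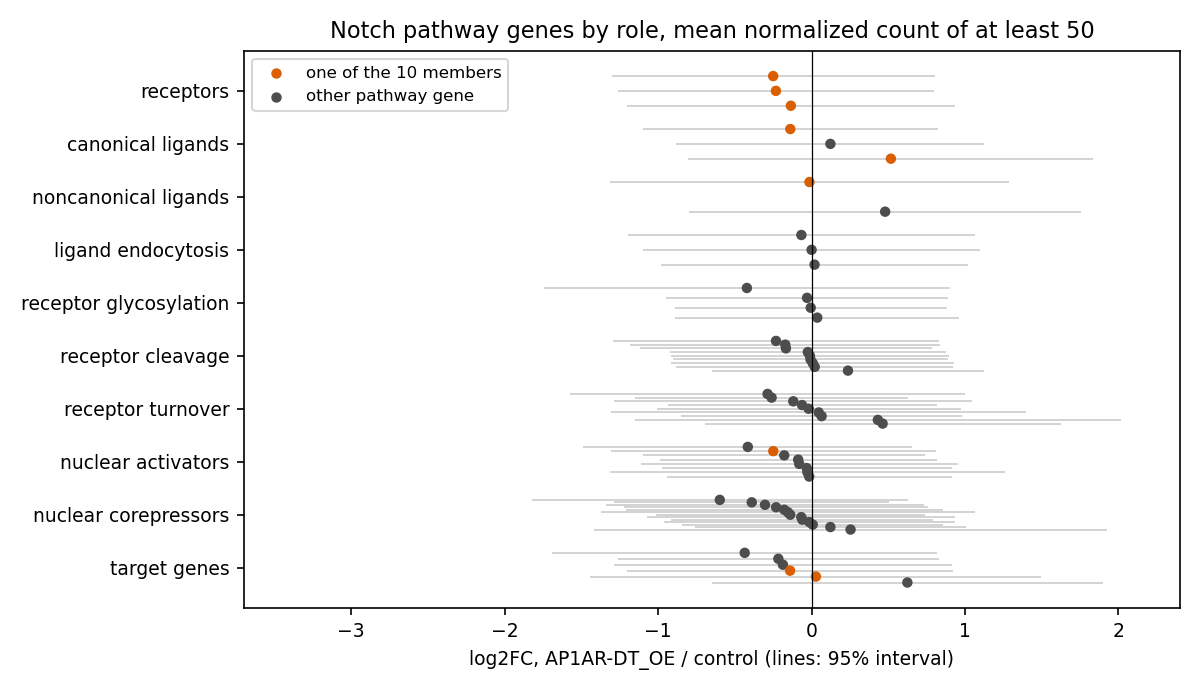
Log2FC of AP1AR-DT_OE over control (horizontal axis, lines for 95% intervals) for Notch pathway genes averaging 50 or more normalized counts, by role, with the followed members in orange and the other pathway genes in grey. All points lie between -0.60 and 0.62 and every interval spans 0.

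The sign of most members' Log2FC changed with the library that was left out. When each library was left out in turn, 9 of the 10 members took both signs, JAG2 being the exception, and no member was called in any of these fits. The most divergent was HES1, with a Log2FC from -1.44 without AP1AR-DT_OE 2 to 1.53 without control 2. Each such fit leaves the library numbers unequal between the groups and has no term for the number. A change of sign therefore cannot be told apart from the difference between the numbers. Compared within library numbers, HES1 stood at 0.08 and 0.02 on the log2 scale, and JAG1 and DLL1 also kept their sign. The share of all genes that took both signs was not computed, so the count is not read as particular to the members.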

How the data were processed

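RNA of 4 SK-N-SH libraries (2 control, 2 AP1AR-DT_OE) was sequenced as paired 150-bp reads. Per the paper's methods, the authors aligned reads to hg19 with HISAT2, ran StringTie and took counts with its Python script; the submitters' processing notes instead list TopHat2 2.0.4, SAMtools, HTSeq, Cuffdiff and edgeR 2.6.12. Versions of HISAT2 and StringTie, the annotation and the use of strand are not given in the sources used here. The deposited values are raw counts per gene, whole numbers with no normalization, and gene positions in the table are GRCh38. The deposited table also holds 11 columns of the authors' own DESeq2 and edgeR tests, which were not used. Libraries were assigned to groups by title.

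Counts were fitted with DESeq2 1.42.0 in R 4.3.3 across all 24014 genes (median-of-ratios size factors, two-sided Wald test, no covariate, Benjamini-Hochberg adjustment, threshold 0.05). Each count was divided by its library's size factor to give the normalized read count, and values are listed as library 1, then library 2. Intervals are 1.96 SE on either side of the Log2FC. Ratios within or between library numbers are log2 ratios of normalized counts with a pseudocount of 0.5. Low counts pile up at 4 (3287 entries, against 2136 at 3 and 1509 at 5), so about 4 counts stand for a read pair, and floors cover counting error only. GC content and length are those of the longest GENCODE 44 transcript on GRCh37, matched by gene ID for 23954 genes; none of its coordinates is printed. Marker lists and the pathway list were written by hand, and NEURL1 was matched by gene ID. Genes named beside the members were, in each role, the highest and lowest Log2FC among genes averaging 50 or more normalized counts, and HES2. Some genes of these lists are not reported here. The members and lists were chosen with earlier results of these data known.

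Alternatives were edgeR 4.0.16 (quasi-likelihood, TMM, default filter), TMM factors, a filter of 10 counts in 2 libraries, no independent filtering, the replicate number as a block in both tools, GC correction (lowess, span 0.3) with and without the block, counts divided by 4, and leaving out each library.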

Additional observations from a re-analysis of the deposited data

How the results depend on the processing

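No Notch member and no other pathway gene was called under any of the 13 alternatives; over the 130 values of the members the smallest DESeq2 or edgeR adjusted p was 0.999. The count of all genes called, 33 as reported, was 55 with GC correction, 60 when the replicate block was added to that correction, 15 after dividing counts by 4 and 0 by edgeR's quasi-likelihood fit (112 before adjustment). Without 1 library it ran from 45 to 90. What moved these counts (the cause) was not tested. The median Log2FC of the members, -0.14 as reported, ran from -0.15 to -0.06 under the alternatives with all libraries and from -0.12 to 0.55 in the fits on 3 libraries, the 0.55 coming without control replicate 1. In those fits the lone library of a group was assumed to vary like the other group.

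Of the members' 130 values, 23 changed sign, all of Log2FC values that were not called. With all libraries, DLK1 went from -0.01 to 0.069 with GC correction, 0.097 with both GC correction and replicate block, 0.14 with replicate block, 0.13 with that block in edgeR, and 0.0083 after dividing counts by 4. HES1 went from 0.03 to -0.0019 with GC correction and -0.0033 with TMM factors. In the fits on 3 libraries, the Log2FC ran from -0.71 to 0.51 for NOTCH1, -0.75 to 0.62 for NOTCH2, -0.77 to 0.59 for NOTCH3, -0.31 to 0.061 for JAG1, -0.40 to 0.73 for DLL1, -0.56 to 0.88 for DLK1, -0.65 to 0.31 for RBPJ, -1.44 to 1.53 for HES1 and -0.62 to 0.58 for HEY1.

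The labels do not say that the replicate number marks a shared batch. Deviations from the group means correlated at 0.38 across 16730 genes between libraries with the same number, and at 0.19 after GC correction. The replicate block gave 37 called genes, 16 of them among the 33, and 44 with the edgeR test. It changed no call of a member and gave narrower intervals for all but DLL1, such as -0.48 to 0.29 for NOTCH2 and -0.60 to 0.69 for HES1.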

Other observations

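Among the mesenchymal markers, PRRX1, a homeobox factor of the mesenchymal neuroblastoma state, was singled out after its values were seen. It had 2432 and 14724 raw counts in control and 1131 and 2263 in AP1AR-DT_OE. Control 2 was the highest library, and both AP1AR-DT_OE libraries lay below both controls. In normalized counts, 4.35% of genes averaging 50 or more lay lower without overlap. PRRX1 was not called.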
